A study of Mus musculus with 10 samples.

Results

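The unfolded protein response and the Atf4 stress response were followed through 39 genes that encode endoplasmic reticulum (ER) stress sensors, stress transcription factors, ER chaperones, ER-associated degradation proteins and amino acid response proteins. The genes were a list of symbols, and all 39 were found among the 43629 gene identifiers of the count tables and passed the filter on low counts, so 39 of the 17039 genes tested belong to the list. The RNA came from C57BL/6 mouse embryos at E14.5, from their dorsal telencephalon, where the cerebral cortex forms. The 5 controls carried no Cre and 1 floxed Dot1l allele (Dot1l-cKO f/+). The 5 Dot1l-cKO samples carried the Cre and a floxed Dot1l on both chromosomes (Cre/+; Dot1l f/f). The Cre is active in the telencephalon, and since the controls lack it, an effect of the Cre allele itself and the loss of Dot1l, a histone H3 lysine 79 methyltransferase, cannot be told apart in these samples. The controls were littermates, and samples are labelled as biological replicates.

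Unfolded proteins in the ER lumen are sensed by the membrane proteins Ern1, Eif2ak3 and Atf6. Ern1 splices the Xbp1 mRNA, Atf6 is cut in the Golgi to free a transcription factor, and both routes raise the transcription of ER chaperones and degradation genes. Eif2ak3 phosphorylates eIF2alpha, which slows protein synthesis while it favours translation of Atf4, and Atf4 then induces genes of amino acid supply and feedback. In the developing cortex this branch has been linked to the mode of neurogenesis. Much of the regulation lies in splicing, cleavage, phosphorylation and translation, which gene-level counts do not measure.

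Between 54202349 and 66556034 counts were assigned per sample. The columns of the normalised tables carry a number that no label explains, here called the header number. The 4 samples with header number 57, replicates 2 and 3 of both groups, had 0.0471% to 0.492% of their counts in mitochondrial rRNA, against 5.79% to 10.9% in the other 6. The gene-level Dot1l count was not called different (control 37.3 ± 4.04 CPM against 39.4 ± 11.7 CPM, SD, n = 5 per group, edgeR adjusted p = 0.864), and since it sums every exon it does not check the deletion. Markers of radial glia and cortical neurons were well expressed in every sample, at summed levels of at least 2191 and 4150 CPM. Of 8 interneuron markers 3 fell and none rose, and their sum was 64.8 to 311 CPM in controls against 6.35 to 85.1 CPM in Dot1l-cKO. Markers of intermediate progenitors, cortical neurons, choroid plexus, meninges, endothelium and erythroid cells gave no call in the main edgeR fit. Neurod2 of the cortical neuron list had a log2 fold change of 0.34 (edgeR adjusted p = 0.0566). It was called higher with the replicate number as a block (adjusted p = 0.0206) and by DESeq2 (adjusted p = 0.0435). Kcne2 of the choroid plexus list was the 1 marker at 0 in a sample. In bulk tissue, fewer cells of a type and less RNA per cell cannot be told apart. CPM are counts scaled to 1e+06 TMM-normalised counts per sample, and fold changes are given for Dot1l-cKO over control.

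Of the 39 stress response genes, 2 were called differentially expressed between the genotypes, and 7.11% of all genes tested were called. Both were targets of Atf4 in amino acid supply and both rose: Slc7a3, a transporter of arginine and lysine, by 2.89-fold, and Asns, asparagine synthetase, by 1.24-fold. No member was called lower, where 1.44% of all genes were. The sensors, the stress transcription factors, the ER chaperones and the degradation genes had no call. The median log2 fold change of the 39 genes was -0.003, with 18 above 0 and 21 below, and that of all genes tested was -0.01. Calls are adjusted p-values under 0.05 by edgeR's quasi-likelihood test, with no term for the replicate number. At an unadjusted p under 0.05, 8 of the 39 passed, against 20.6% of all genes. DESeq2, the tool of the study, called 5 of the 39, with the same rises and with Ern1, Eif2ak3 and Edem1 lower. It called 10.4% of all genes, 3.43% lower. With the replicate number as a block, edgeR called 1 of the 39, Slc7a3, where it called 9.41% of all genes.

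**Figure D1:**
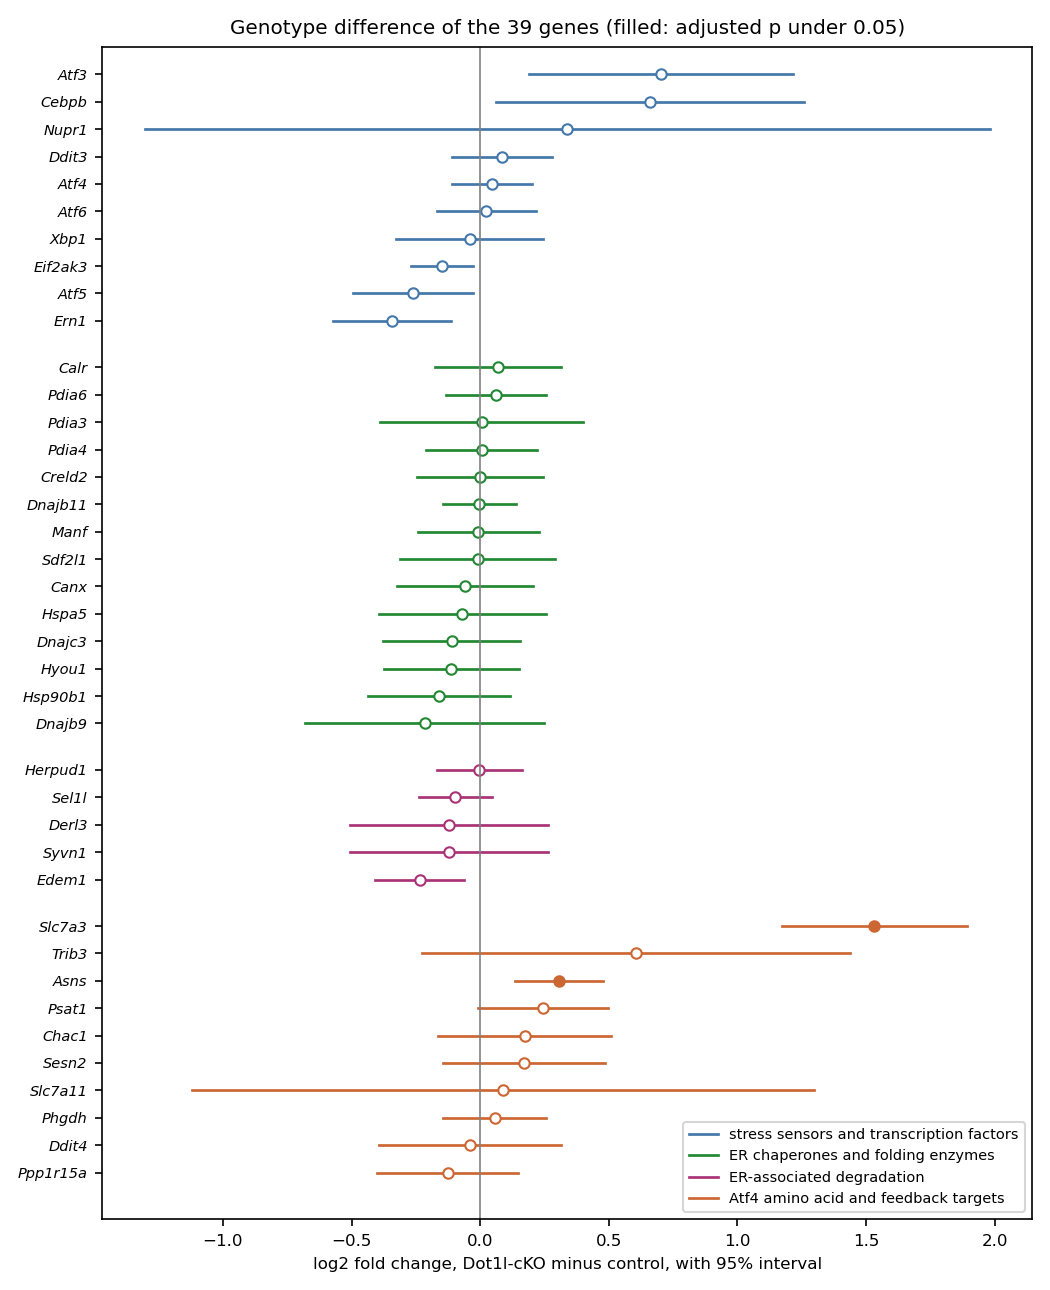
Log2 fold change of each of the 39 genes (x axis, Dot1l-cKO minus control, n = 5 each) with its 95% interval, grouped by role. Filled points, Slc7a3 at 1.53 and Asns at 0.31, are those with an adjusted p under 0.05, and the ER chaperones in green lie between -0.22 and 0.07.

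The sensors and transcription factors were examined gene by gene. Atf6, the sensor that is itself a transcription factor, measured 55.7, 43.1, 45.7, 53.9 and 53.3 CPM in controls 1 to 5. In Dot1l-cKO 1 to 5 it measured 53.5, 45.9, 48.8, 55.6 and 52.0 CPM. The groups overlapped throughout, and in each of them the samples with header number 57 were the lowest (log2 fold change 0.02, SE 0.09, edgeR adjusted p = 0.917). Over all 10 samples Atf6 was lower in those with header number 57 by a log2 difference of -0.24 (edgeR adjusted p = 0.0185, a comparison added after the data were seen), in which 11.4% of all genes were called, 5.3% higher and 6.12% lower. Pdia3, a disulfide isomerase, and Ddit4, an inhibitor of mTORC1 signalling, were higher there by 0.53 and 0.47, and no other member was called.

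Ern1, the kinase and RNase that splices Xbp1, measured 19.4, 22.1, 22.2, 18.9 and 20.3 CPM in controls. The Dot1l-cKO samples gave 15.7, 13.0, 17.2, 16.0 and 19.2 CPM. Only Dot1l-cKO 5 reached the range of the controls, and in each of the 5 replicate numbers the Dot1l-cKO sample was the lower. How many of all genes moved 1 way in every replicate number was not counted. Eif2ak3, Atf5, Dnajb9 and Edem1 were also lower in all 5, and Atf3, Cebpb, Psat1 and Slc7a3 were higher in all 5. Among these, Atf5, Cebpb and Dnajb9 had edgeR adjusted p of 0.192, 0.196 and 0.625. The log2 fold change of Ern1 was -0.34 (SE 0.10, edgeR adjusted p = 0.0764), so it was not called. DESeq2 called it (adjusted p = 0.0147), and edgeR with the replicate number as a block did not (adjusted p = 0.0743). With a sample left out, edgeR called Ern1 in 1 of 10 fits, with adjusted p from 0.0343 to 0.171. That fit lacked Dot1l-cKO replicate 5, the sample that reached the control range, and its share of all genes called was not counted.

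Eif2ak3, also known as PERK, measured 54.6, 50.5, 53.3, 53.1 and 52.5 CPM in controls. Its values in Dot1l-cKO were 45.0, 46.4, 48.0, 48.2 and 50.2 CPM. Every Dot1l-cKO sample lay below every control, but by little. The log2 fold change of Eif2ak3 was -0.15 (SE 0.05, edgeR adjusted p = 0.142), and DESeq2 called it at an adjusted p of 0.0173. Of the 39 genes, 3 had groups that did not overlap, Eif2ak3 lower and Slc7a3 and Atf3 higher, while 8.34% of all genes showed no overlap, 6.17% higher and 2.17% lower.

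Xbp1, the transcription factor made active by Ern1, measured 89.0, 57.7, 63.4, 55.4 and 58.4 CPM in controls. Among Dot1l-cKO samples it measured 73.0, 60.8, 56.2, 64.6 and 60.3 CPM. Control 1 stood far above the other controls, and Dot1l-cKO 1, which shares its header number 51, was the highest of its group. The log2 fold change of Xbp1 was -0.04 (SE 0.13, edgeR adjusted p = 0.897) and turned to 0.10 without control replicate 1 (adjusted p = 0.626). The counts do not separate spliced from unspliced Xbp1 mRNA.

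Atf4, on which the amino acid response converges, measured 148.8, 125.8, 125.4, 136.8 and 129.7 CPM in controls. Its Dot1l-cKO values were 137.4, 132.8, 126.9, 149.5 and 141.4 CPM. The groups overlapped over nearly their whole range, and the log2 fold change was 0.05 with a 95% interval from -0.11 to 0.20 (edgeR adjusted p = 0.773). Ddit3, the Atf4-induced factor CHOP, measured 10.8, 9.75, 10.4, 11.6 and 10.3 CPM in controls. The Dot1l-cKO samples measured 11.4, 11.1, 9.96, 12.5 and 11.1 CPM. These groups overlapped too (log2 fold change of Ddit3 0.09, SE 0.09, edgeR adjusted p = 0.645).

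Atf3, an early induced stress factor, was scarce. It measured 0.864, 0.368, 0.823, 0.638 and 0.516 CPM in controls, from 21 to 55 counts a library. In Dot1l-cKO it measured 0.868, 0.937, 1.07, 1.19 and 1.16 CPM, from 46 to 79 counts. The groups did not overlap but came close, with 0.864 CPM in control 1 against 0.868 CPM in Dot1l-cKO 1. The log2 fold change of Atf3 was 0.70 (SE 0.23), and neither edgeR (adjusted p = 0.105) nor DESeq2 (adjusted p = 0.0502) called it.

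The other 3 factors were not called either. Cebpb, a partner of Atf4 on DNA, measured 1.29 ± 0.424 CPM in controls against 2.04 ± 0.664 CPM in Dot1l-cKO (SD, n = 5 per group, log2 fold change 0.66, edgeR adjusted p = 0.196). Atf5, which like Atf4 is controlled in translation, measured 20.2 ± 2.05 and 16.8 ± 2.16 CPM (log2 fold change -0.26, edgeR adjusted p = 0.192). Nupr1, a small nuclear stress protein, ranged from 0.0452 to 1.35 CPM within Dot1l-cKO alone. Markers of microglia and macrophages, cells that can express Atf3 and Cebpb, moved with genotype: 5 of 7 rose, none fell, none was at 0 in any sample, and their sum was 32.2 to 84.2 CPM in controls against 63.1 to 134.9 CPM in Dot1l-cKO. Their part in the values of Atf3 and Cebpb was not tested.

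**Figure D2:**
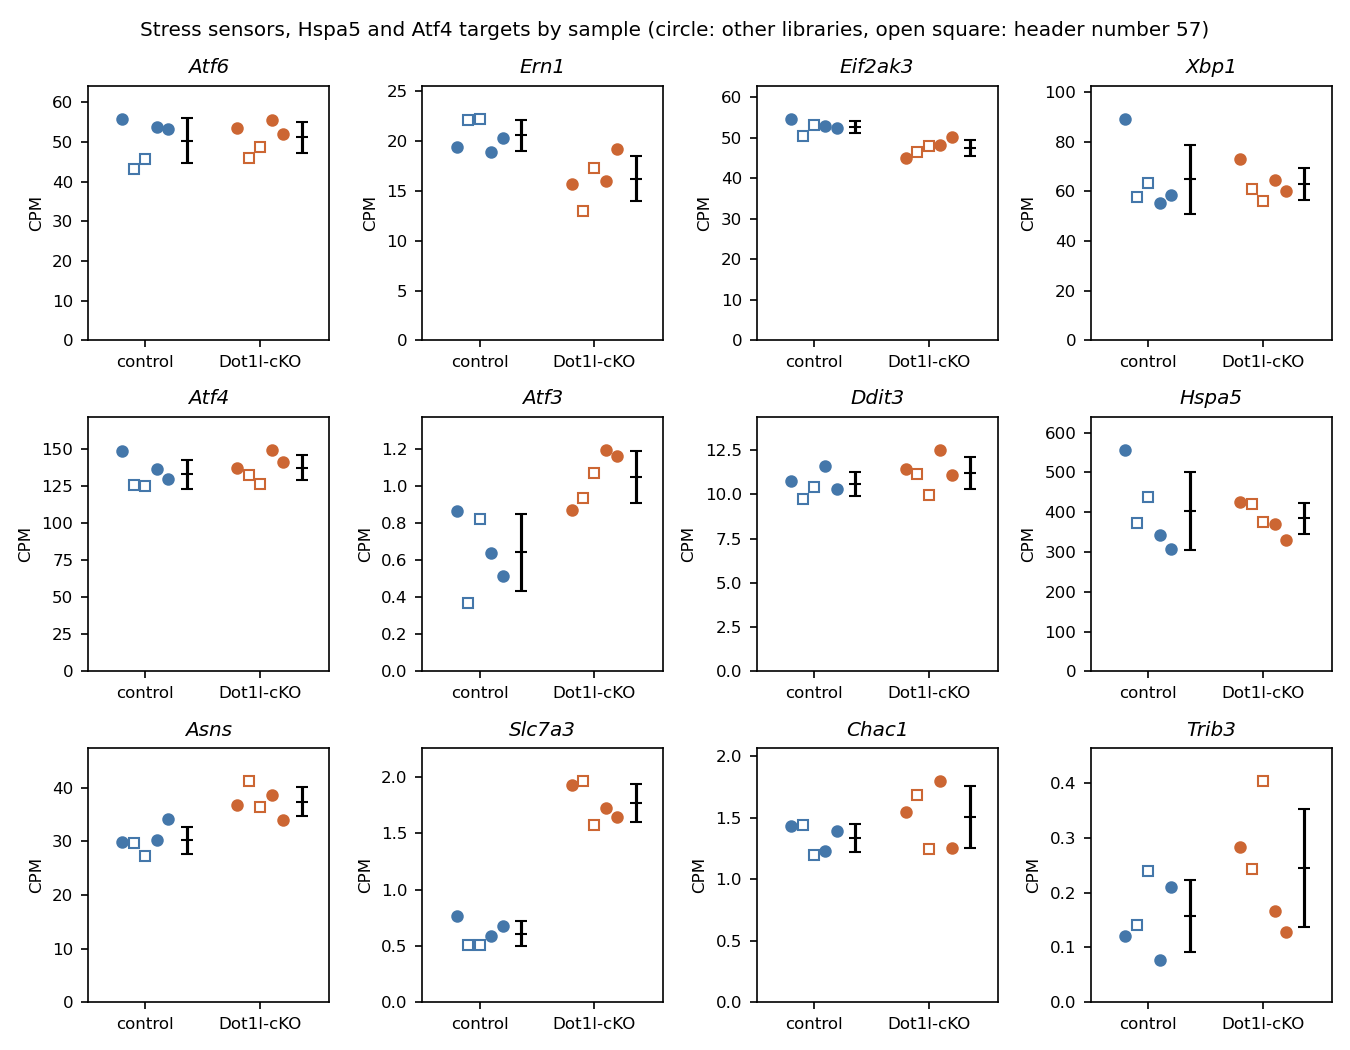
CPM (y axis, from 0) of 12 genes in each control and Dot1l-cKO sample, in the order of the replicate numbers, with the group mean and SD as black bars (n = 5). Open squares are samples with header number 57. Slc7a3 separates the groups, at most 0.764 CPM in controls and at least 1.58 CPM in Dot1l-cKO, while Atf4 and Hspa5 overlap.

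The ER chaperones and folding enzymes were the most abundant part of the response. Per kilobase of exon, Calr, a calcium-binding lectin chaperone, was the highest of the 39 genes in controls at 185.4 CPM per kb, followed by Canx, its membrane-bound relative, at 106.2 and by Hspa5 at 95.4. None of the 14 was called in either direction. Their log2 fold changes lay between -0.22 (Dnajb9) and 0.07 (Calr), 4 above 0 and 10 below, with a median of -0.01. The summed level of the 14 was 2408 to 3337 CPM in controls against 2624 to 2922 CPM in Dot1l-cKO.

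Hspa5, the BiP chaperone that holds the sensors inactive, measured 556.0, 373.4, 437.2, 342.8 and 307.7 CPM in controls. In Dot1l-cKO it measured 426.1, 419.9, 374.9, 371.1 and 329.8 CPM. All Dot1l-cKO values lay inside the range of the controls, whose spread was the wider (log2 fold change of Hspa5 -0.07, SE 0.15, edgeR adjusted p = 0.838). Control 1 was high across the group: it held the highest value of all 10 samples for 8 of the 14 genes, while control 5 held the lowest for 6. Without control replicate 1 the log2 fold change of Hspa5 was 0.07, again not called (adjusted p = 0.817).

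The rest of the group gave no call either. Hsp90b1, the ER form of Hsp90, measured 376.5 ± 72.2 CPM in controls against 336.9 ± 28.3 CPM in Dot1l-cKO (SD, n = 5 per group). The disulfide isomerases Pdia3, Pdia4 and Pdia6 had log2 fold changes of 0.01, 0.01 and 0.06, and the J-domain cochaperones Dnajb11, Dnajc3 and Dnajb9 had -0.003, -0.11 and -0.22. Hyou1, a nucleotide exchange factor for Hspa5, had -0.11, Canx -0.06, and the secreted or luminal proteins Sdf2l1, Manf and Creld2 -0.01, -0.01 and -0.0002. The lowest adjusted p among the 14 was 0.530, for Hsp90b1. Manf overlaps Rbm15b on the same strand, where reads could not be split with certainty. Hsp90b1, Pdia4, Atf6, Eif2ak3, Syvn1, Sesn2 and Slc7a11 also overlap annotated genes on the same strand, all with Gm or Mir names.

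How closely these values bound a change can be read from their intervals. For 13 of the 14 chaperones the 95% interval lay within a 1.5-fold change in either direction. Dnajb9 was the exception at 1.5-fold, with an interval that ran down to -0.68 in log2. Of the 37 members without a call, 31 lay within 1.5-fold. The intervals of Atf3, Cebpb, Nupr1, Slc7a11 and Trib3 reached a 1.5-fold rise, and those of Nupr1, Dnajb9 and Slc7a11 reached a 1.5-fold fall.

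The ER-associated degradation genes, whose products return misfolded proteins to the cytosol, were not called in either direction, and all 5 had log2 fold changes below 0. Edem1, a lectin that picks misfolded glycoproteins, was the furthest from 0, with 33.1 ± 2.88 CPM in controls against 28.1 ± 1.86 CPM in Dot1l-cKO (SD, n = 5 per group). Its log2 fold change was -0.24 (SE 0.08, edgeR adjusted p = 0.106, DESeq2 adjusted p = 0.0181), and the Dot1l-cKO sample was the lower in 5 of 5 replicate numbers. The ubiquitin ligase Syvn1 had -0.12, its adaptor Sel1l -0.10, the membrane proteins Derl3 and Herpud1 -0.12 and -0.003. Syvn1 was low in Dot1l-cKO 2 alone, at 10.6 CPM against 17.6 to 24.0 CPM in the other 9 samples.

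The clearest difference was in Slc7a3 (ENSMUSG00000031297, chromosome X, 101079210 to 101086020, minus strand of GRCm38). It measured 0.764, 0.509, 0.509, 0.592 and 0.678 CPM in controls 1 to 5, from 29 to 42 counts a library. In Dot1l-cKO 1 to 5 it measured 1.92, 1.96, 1.58, 1.72 and 1.64 CPM, from 90 to 114 counts. The lowest Dot1l-cKO value was above the highest control, and the samples within each group lay close together. The log2 fold change was 1.53 (SE 0.16), a 2.89-fold rise with a 95% interval from 2.25 to 3.71 (edgeR adjusted p = 0.00039). In level, Slc7a3 stayed among the lowest of the 39 genes, at 0.161 CPM per kb in controls and 0.466 in Dot1l-cKO. The gene is X-linked, and the Y-linked Uty was high in control 4, Dot1l-cKO 1 and Dot1l-cKO 3 and at most 0.362 CPM in the others. Slc7a3 measured 0.592, 1.92 and 1.58 CPM in those 3 samples, of which Dot1l-cKO 3 was the lowest of its group.

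Asns (ENSMUSG00000029752, chromosome 6, 7675169 to 7693254, minus strand), which makes asparagine from aspartate and glutamine, moved less. It measured 29.9, 29.7, 27.3, 30.2 and 34.3 CPM in controls. In Dot1l-cKO it measured 36.9, 41.2, 36.4, 38.7 and 34.0 CPM. Dot1l-cKO 5 lay just below control 5, and the other 4 Dot1l-cKO samples lay above every control. The log2 fold change of Asns was 0.31 (SE 0.08), a 1.24-fold rise with a 95% interval from 1.10 to 1.39 (edgeR adjusted p = 0.0370). The call was close to its threshold: with the replicate number as a block the adjusted p was 0.0545 (9.41% of all genes were then called, and of the members Slc7a3), and without a sample it passed in 2 of 10 fits. Markers of radial glia, the cortical progenitors, moved with genotype beside it: of 9, Vim, Fabp7, Slc1a3 and Hopx rose and Pax6 fell, none was at 0 in any sample, and their sum, most of it from Vim, Nes and Fabp7, was 2191 to 2714 CPM in controls against 2882 to 3220 CPM in Dot1l-cKO. The list did not move one way, since 5 of its 9 log2 fold changes lay below 0 and the median was -0.16, and Sox2 (log2 fold change -0.38, edgeR adjusted p = 0.0639) was called lower with the replicate block (adjusted p = 0.00906) and by DESeq2 (adjusted p = 0.0121). Their part in the rise of Asns was not tested.

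The other Atf4 targets were not called. Psat1, an enzyme of serine synthesis, measured 228.0 ± 36.8 CPM in controls against 269.8 ± 24.2 CPM in Dot1l-cKO (SD, n = 5 per group, log2 fold change 0.24, edgeR adjusted p = 0.263) and was the higher in Dot1l-cKO in 5 of 5 replicate numbers. Phgdh, which opens the same pathway, measured 143.0 ± 16.5 and 148.7 ± 11.4 CPM (log2 fold change 0.06). Chac1, a glutathione-degrading enzyme, measured 1.43, 1.44, 1.20, 1.23 and 1.39 CPM in controls, and 1.55, 1.68, 1.24, 1.79 and 1.26 CPM in the Dot1l-cKO samples. The groups of Chac1 overlapped (log2 fold change 0.17, SE 0.15, edgeR adjusted p = 0.586).

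Trib3, a pseudokinase that restrains Atf4, was the scarcest of the 39 genes per kilobase, at 0.0742 CPM per kb in controls. It measured 0.121, 0.140, 0.240, 0.0779 and 0.210 CPM in controls, and 0.283, 0.243, 0.403, 0.166 and 0.129 CPM in the Dot1l-cKO samples, from 5 to 23 counts a library. The groups of Trib3 overlapped, and at this depth its interval ran from -0.22 to 1.44 in log2 (edgeR adjusted p = 0.415). The remaining feedback genes had log2 fold changes of 0.17 for Sesn2, which restrains mTORC1, of -0.04 for Ddit4 and of -0.13 for Ppp1r15a, the subunit that brings a phosphatase to eIF2alpha.

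Promoters of the members show which of them carry the textbook elements of these pathways. RefSeq promoters (GRCm38.p6) matched 35 of the 39 genes, and the 250 bases before each RefSeq start were searched on both strands. Atf6, Hyou1, Manf and Slc7a3 were not among those matched. The amino acid response element, TGATGNAA, was found in 6 of the 35, namely Asns, Chac1, Slc7a11, Atf3, Nupr1 and Herpud1, and in 3.91% of 27025 genes. The ER stress element, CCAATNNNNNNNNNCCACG, was found in 9 of the 35, namely Hspa5, Hsp90b1, Dnajc3, Calr, Canx, Pdia6, Creld2, Syvn1 and Derl3, and in 0.130% of genes. The core of the Xbp1 element, TGACGTGG, was found in none of the 35 and in 0.603% of genes. Of the 9 genes with the ER stress element none was called, and their log2 fold changes ran from -0.16 to 0.07 with a median of -0.07. The 6 with the amino acid response element had a median of 0.24, and Asns was the 1 called among them. The promoters of Asns, Chac1 and Hspa5 are shown 5′ to 3′, with the match in capitals (its fixed letters in Hspa5), as examples of a gene that rose and of genes that were not called with the same or the other element. In Asns (chr6:7693210-7693459, minus strand) the match begins 23 bases before the RefSeq start. In Chac1 (chr2:119350992-119351241, plus strand) it lies on the opposite strand and begins 193 bases before that start. In Hspa5 (chr2:34771840-34772089, plus strand) it begins 65 bases before that start. The GENCODE gene spans begin further upstream, at 7693254 for Asns and 34771970 for Hspa5, so the matches in Asns and Hspa5 lie inside those spans.
Asns: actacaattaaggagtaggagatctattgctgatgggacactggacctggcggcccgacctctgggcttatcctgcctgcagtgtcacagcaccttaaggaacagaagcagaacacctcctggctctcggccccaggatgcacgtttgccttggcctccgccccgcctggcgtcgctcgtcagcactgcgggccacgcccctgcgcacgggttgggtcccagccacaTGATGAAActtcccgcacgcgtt
Chac1: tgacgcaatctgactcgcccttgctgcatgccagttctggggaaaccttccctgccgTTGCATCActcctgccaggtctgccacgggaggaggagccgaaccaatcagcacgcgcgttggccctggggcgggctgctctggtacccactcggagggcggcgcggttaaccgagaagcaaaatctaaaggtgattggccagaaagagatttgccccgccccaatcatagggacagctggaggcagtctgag
Hspa5: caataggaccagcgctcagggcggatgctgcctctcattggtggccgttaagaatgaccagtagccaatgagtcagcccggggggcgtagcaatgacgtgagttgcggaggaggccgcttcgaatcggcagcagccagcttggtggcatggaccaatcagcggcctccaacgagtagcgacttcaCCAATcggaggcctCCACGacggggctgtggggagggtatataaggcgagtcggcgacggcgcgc

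Nupr1 and Slc7a11 had the largest SE of the 39 genes, 0.75 and 0.55, and neither was called between genotypes. Slc7a11, the cystine and glutamate exchanger, measured 11.4, 12.1, 22.2, 2.76 and 8.70 CPM in controls, and 17.8, 4.86, 12.1, 3.98 and 22.0 CPM in the Dot1l-cKO samples. Both groups spanned the same range (log2 fold change 0.09, SE 0.55, edgeR adjusted p = 0.951). The summed level of 7 meningeal and fibroblast markers spanned 32.8 to 897.3 CPM in controls against 33.3 to 826.8 CPM in Dot1l-cKO, none of the 7 was called between genotypes and none was at 0 in any sample. In an edgeR fit added after the data were seen, with genotype and the mean log2 CPM of these markers as terms, Slc7a11 rose by 0.60 and Nupr1 by 0.84 in log2 for each log2 unit of the markers (SE 0.06 and 0.10, adjusted p = 0.00037 and 0.00085). These were the 2 members called, and 2.77% of all genes were called higher. Both remained called with any 1 sample left out and with the header number 57 as a further term, and with the markers in the fit neither was called between genotypes. Summed endothelial and erythroid markers were also highest in control 3 (296.4 and 2482 CPM) and Dot1l-cKO 5 (338.4 and 2160 CPM), which held the highest meningeal sums. Their part in the slopes of Slc7a11 and Nupr1 was not tested.

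**Figure D3:**
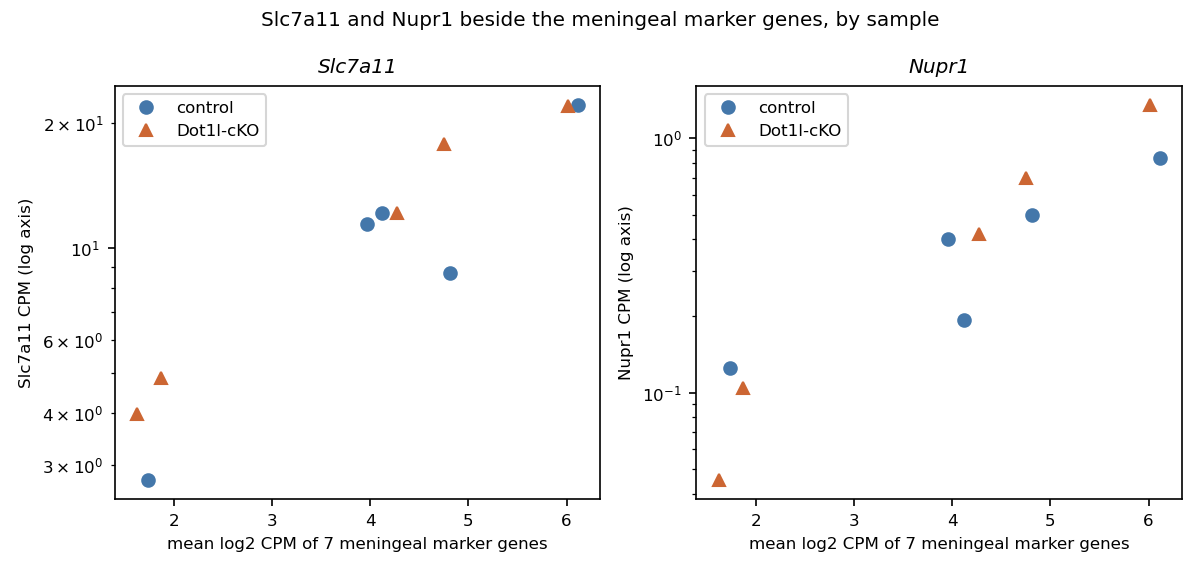
CPM of Slc7a11 and of Nupr1 (y axes, log scale) against the mean log2 CPM of 7 meningeal and fibroblast marker genes (x axes) in each of the 10 samples. The 3 samples with the fewest markers, control 4, Dot1l-cKO 2 and Dot1l-cKO 4, hold the 3 lowest values of Slc7a11, from 2.76 to 4.86 CPM, and samples of both genotypes lie at either end of the x axis.

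Whether the genotype difference was the same in both sets of libraries was tested next. Among the 6 samples outside header number 57, 1 member was called, Slc7a3 (log2 fold change 1.37, edgeR adjusted p = 0.0151), where 4.31% of all genes were called. Among the 4 with header number 57 no member was called, and 1 gene of all tested was (0.00581%), with 2 samples per genotype. The values of Slc7a3 (1.81) and Asns (0.47) in these 4 were above those in the other 6 (1.37 and 0.21). A test of the interaction of genotype with header number called no member and none of the 17039 genes by edgeR (0%), with 2 members, Syvn1 and Ppp1r15a, and 6.29% of all genes under an unadjusted p of 0.05. DESeq2 called no member and 12 of 15567 genes (0.0771%), with the same 2 members and 7.43% of all genes at an unadjusted p under 0.05. The interval of the interaction had a median half-width of 0.44 in log2 over the members and was at least 0.24.

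**Figure D4:**
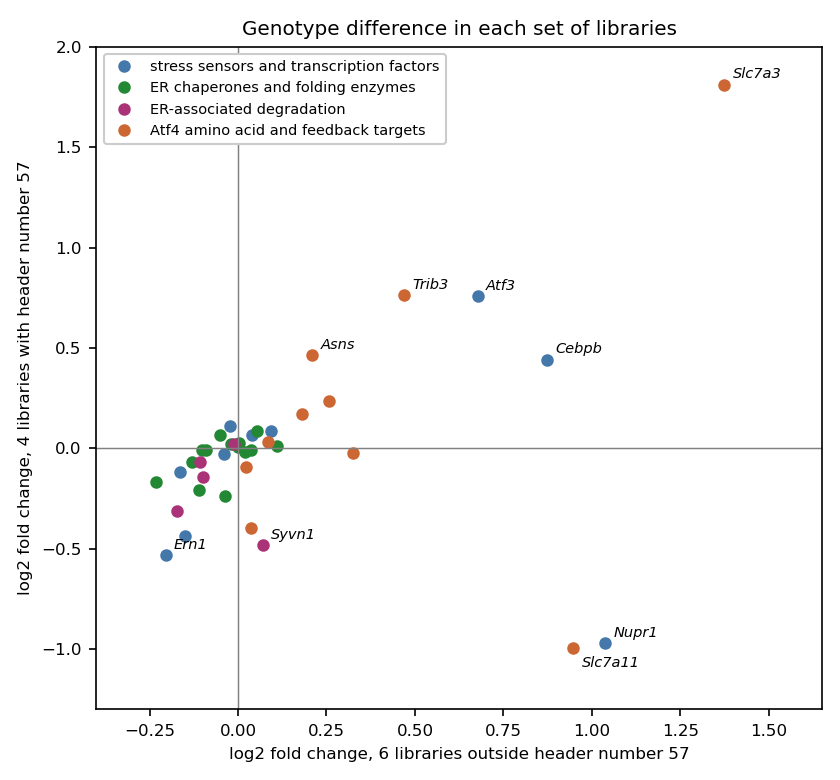
Log2 fold change of each of the 39 genes among the 6 samples outside header number 57 (x axis, 3 per genotype) and among the 4 with it (y axis, 2 per genotype). Slc7a3 lies high on both axes at 1.37 and 1.81, and Slc7a11 and Nupr1 have opposite signs on the axes, with no interaction called.

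Further genes of these pathways were counted from lists that hold none of the 39. Of 124 such genes, 120 were tested, 4 were called higher by edgeR and none lower, against 5.67% of all genes called higher and 1.44% lower. Sil1, a nucleotide exchange factor for Hspa5, was the 1 called of 32 further genes of ER folding and translocation (log2 fold change 0.30, edgeR adjusted p = 0.0457, and 0.0674 with the replicate block). Of 22 further genes of the Atf4 amino acid response that were tested, 2 rose: Cbs, the cystathionine synthase of the transsulfuration pathway, by 0.93 (adjusted p = 0.00481), and Jdp2, a dimerisation partner of AP-1 factors, by 0.49 (adjusted p = 0.0358). The list did not rise as a whole, with 8 log2 fold changes above 0, 14 below and a median of -0.08. Its summed level was 1123 to 1274 CPM in controls against 1009 to 1138 CPM in Dot1l-cKO. With the replicate block Stc2, a secreted glycoprotein, was also higher (0.53, adjusted p = 0.0383) and Slc38a2, a transporter of neutral amino acids, lower (-0.34, adjusted p = 0.0283).

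Cbs showed the larger of these differences. It measured 10.3, 8.77, 9.90, 7.63 and 6.36 CPM in controls, and 18.1, 13.1, 14.6, 20.1 and 16.0 CPM in the Dot1l-cKO samples, with no overlap. None of the 14 further sensors, proteases and eIF2alpha kinases and none of the 20 further degradation genes was called by edgeR without the block. Nor was any of the 20 cytosolic aminoacyl-tRNA synthetases, some of which Atf4 also induces. Of the eIF2alpha kinases, the replicate block called Eif2ak2, which responds to double-stranded RNA, higher (log2 fold change 0.43, adjusted p = 0.0422), and DESeq2 called Eif2ak4, which responds to amino acid shortage, lower (edgeR log2 fold change -0.21, DESeq2 adjusted p = 0.01002). The synthetases had a median log2 fold change of -0.01 and a range from -0.22 to 0.12.

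Cell death genes and neighbouring stress programmes were counted in the same way. Among the 12 tested genes of stress-linked cell death Bid, a proapoptotic Bcl2 relative, rose by 0.44 (edgeR adjusted p = 0.0256). DESeq2 called 2 of this list, both higher, where it called 10.4% of all genes. They were Bid (adjusted p = 0.00319) and Bbc3 (adjusted p = 0.0115, edgeR log2 fold change 0.34, edgeR adjusted p = 0.0583). Of 12 hypoxia response genes Pdk1, a kinase that inhibits pyruvate dehydrogenase, rose by 0.32 (adjusted p = 0.0401), and of 10 p53 response genes Eda2r, a receptor of the tumour necrosis factor family, rose by 0.65 (adjusted p = 0.0470). With the replicate block 4 of the 10 p53 response genes were called higher, Eda2r, Sesn1, Ccng1 and Phlda3 (adjusted p = 0.0318, 0.0217, 0.0297 and 0.0469), where 9.41% of all genes were called. None of the 15 heat shock genes of cytosol and mitochondria and none of the 9 immediate early genes tested was called, with or without the block.

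**Figure D5:**
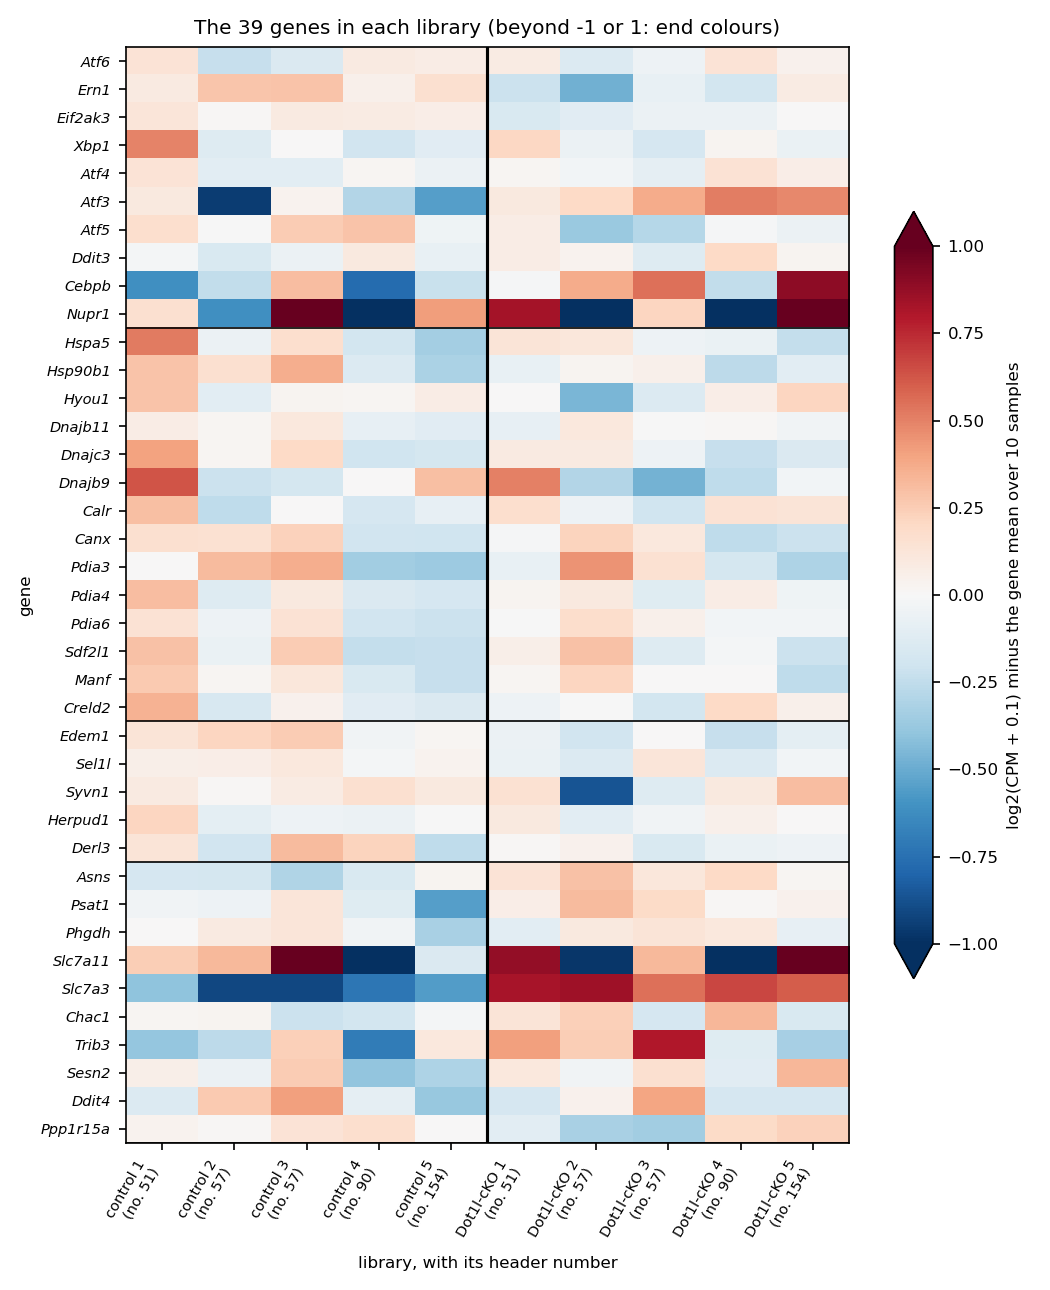
Log2(CPM + 0.1) of each of the 39 genes in each sample, minus the mean of the gene over the 10 samples (colour scale, end colours beyond -1 and 1), in rows ordered by role and columns ordered by genotype and replicate with the header number. Slc7a3 changes colour at the border of the genotypes, 8 of the 14 chaperones are highest in control 1, and Slc7a11 and Nupr1 vary within both genotypes.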

How the data were processed

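Stranded libraries of ribosomal-RNA-depleted total RNA were sequenced from 10 samples. Per the labels and the submitters' processing notes, the authors trimmed reads with Trim Galore 0.2.8, mapped them to mm10 with TopHat2 2.0.9 and counted them per Ensembl gene with HTSeq 0.6.0 in reverse-stranded mode. The deposited values are whole-number counts, not normalised, and in a further set of tables the same counts divided by DESeq2 1.6.1 size factors, a normalised signal used here for 1 alternative only. Total counts were 54202349 to 66556034 per sample, so precision was limited by the spread between samples for most members and by counting for the scarcest. Reads were counted without molecular identifiers. Of 43629 identifiers, 42462 had a symbol in a GENCODE annotation of GRCm38, and the rest held 0.268% of counts. The lowest chi-square per degree of freedom between replicates was 31.2 over 20 pairs, so each sample was counted as 1 replicate.

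Genes were filtered with filterByExpr, normalised with TMM and tested over the whole table with edgeR 4.0.16 (glmQLFit, glmQLFTest, no covariate, R 4.3.3) with Benjamini-Hochberg adjustment. SE are the log2 fold change over the square root of F, and are approximate. Interaction, header number and marker terms were fitted in the same way. The steps were checked on simulated counts with 200 changed genes. Alternatives were DESeq2 1.42.0, its size factors in edgeR, no filter, a minimum of 10 counts in each sample, the replicate block, header number 57 as a covariate, limma 3.58.1 on log2(normalised count + 1), an adjusted p under 0.01, removal of mitochondrial genes, the 6 samples outside header number 57 and leaving out each sample. Added after the data were seen were the 4 header numbers as a block, the meningeal marker score as a covariate and the 4 samples with header number 57.

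The members and lists were chosen with earlier results of these data known. Values per sample are given for called members and for 11 listed regulators and targets (Atf4, Atf6, Xbp1, Ern1, Eif2ak3, Ddit3, Atf3, Trib3, Chac1, Asns and Hspa5). From the other lists the called genes are named, at most 4 a list by size of change. Slc7a11, Syvn1 and Cbs were given by sample after their values were seen. The labels give both groups replicate numbers 1 to 5. Deviations from the group means correlated between same-numbered samples at 0.131 to 0.597 across 17039 genes (mean 0.29). Between different numbers the correlations ran from -0.534 to 0.446 (mean -0.07). Centring each group pulls that mean below 0 when the same-number mean is above 0, so it is no separate support for a pairing. Of 10 samples, 5 were matched best by their own number. A pairing was therefore taken as possible and used in the replicate block, while the main fit left it out. Same-numbered samples share a header number, and nothing states that they share a litter. The driver allele named in the labels is not reported here.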

Additional observations from a re-analysis of the deposited data

Results flagged for a closer look

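Xbp1 in control replicate 1 stood apart from the rest of its group, at 89.0 CPM (log2 CPM 6.48, against a group median of 5.87). Its gap to the nearest control was 0.714 of the range of the group, above Dixon's limit for 5 samples. Among the 78 groups examined, 39 genes in 2 genotypes, it was the 1 sample so placed, and chance places about 1 in 20 groups there.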

How the results depend on the processing

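Slc7a3 was called under each of 13 alternatives except among only the 4 samples with header number 57, and in each of the 10 fits that left out a sample. Asns was lost in 7 alternatives, where its log2 fold change was 0.21 to 0.47, and in 8 of the 10 fits. The 2 members called became 1 with DESeq2 size factors in edgeR, limma on normalised counts, no low-count filter, only the 6 samples outside header number 57, the replicate block or an adjusted p under 0.01 (the lost call was Asns), 0 with only the 4 samples with header number 57, and 5 with DESeq2 (3 lower: Ern1, Eif2ak3 and Edem1). With the meningeal marker score as a covariate 4 were called, 1 of them lower, the added ones being Cebpb (adjusted p = 0.0421) and Ern1 (0.0474). The share of all genes called was counted for the main fit, DESeq2 and the replicate block. It was also counted for the samples outside and those with header number 57, but for no other genotype fit. Calls gained or lost in the other fits, those that left out a sample included, therefore cannot be set against that share. Leaving out a sample gave 1 to 3 members, 1 to 2 higher and 0 to 1 lower. The replicate block changed no other call among the members (Slc7a3, adjusted p = 0.00319). The 6 calls in the pathway and neighbouring stress lists, all higher, became 12 with DESeq2 (10 higher, 2 lower), 12 with header number 57 as a covariate (11 higher, 1 lower), 11 with the replicate block or the header number as a block (10 higher, 1 lower), 2 outside header number 57, 1 with no low-count filter or an adjusted p under 0.01, 0 with only the 4 samples, and 1 to 8 (1 to 8 higher, 0 to 1 lower) with a sample left out. The median log2 fold change of the 39 genes stayed between -0.05 and 0.06 in the fits that left out a sample. The cause of these changes was not tested, beyond the smaller number of samples where samples were left out. Counts limit Trib3, Nupr1, Atf3 and Slc7a3 most, 7 members having under 100 counts in some sample. Members called with the meningeal markers numbered 2 in every fit run.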
